A study of Mus musculus with 8 samples.

Results

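Transcripts of platelets and red cells were examined in RNA sequencing libraries of mouse natural killer (NK) cells. The 8 named genes were taken by symbol from the deposited table of read counts, out of 27179 genes, and each symbol matched 1 row. Gp1bb, Itga2b, Pf4 and Ppbp stand for platelets, and Hba-a1, Hba-a2, Hbb-b1 and Hbb-bs are adult globin genes. The 8 libraries come from C57BL/6 mice and cross the genotype (wild-type or CIS-/-, here CIS-null) with the state of the cells (ex vivo or in vitro), with 2 libraries for each of the 4 combinations. CIS, encoded by Cish, is an inhibitor of cytokine signalling in the SOCS family. Cells of spleen, bone marrow and blood were enriched with magnetic beads against CD49b, the DX5 antigen, which platelets carry too. The labels give no age, sex, culture medium, cytokine or culture time, and leave it unstated if the 2 replicates of a group are different animals or cultures. A p-value here therefore speaks of the spread among these samples only, and that spread could be technical.

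Platelets are cell fragments shed by megakaryocytes into the blood, and red cells of mammals lose their nucleus before they circulate. Both keep RNA made by their precursors: platelets keep messages for granule chemokines and adhesion receptors, and young red cells keep globin messages. NK cells are cytotoxic lymphocytes, and neither haemoglobin nor the platelet granule chemokines are among their defining products.

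Library totals ran from 21.5 to 28.1 M counts (M for 1e6). Levels are given as scaled counts per M (CPM), and 3 counts, the limit that a count of 0 allows, came to between 0.104 and 0.138 CPM per library. This limit and the counting intervals below cover counting error only. Cish itself was at 9.26, 9.12, 1.29 and 2.64 CPM ex vivo and at 220, 202, 21.2 and 17.2 CPM in vitro (wild-type replicates 1 and 2, then CIS-null replicates 1 and 2). The 15 NK cell marker genes summed to between 30800 and 62700 CPM, and none was at 0 in any library. Xist, a transcript of the inactive X chromosome, was at 120 and 162 CPM in wild-type against at most 0.322 CPM in CIS-null libraries ex vivo, and at most 0.0351 CPM against 131 and 89.7 CPM in vitro, so the Xist state changes with the genotype in both states and with the state in both genotypes, and sex-linked expression cannot be told apart from any of these 4 comparisons or from the difference between the 2 genotype contrasts. CIS-null ex vivo replicate 1 stood apart from the other 3 ex vivo libraries, with 81.6 CPM over 8 B cell markers against 15.4 to 30.7 CPM and 43.4 CPM over 10 basophil and mast cell markers against 9.35 to 19.4 CPM.

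All 8 genes were detected in all 4 ex vivo libraries and were at or near 0 in all 4 in vitro libraries. Over the ex vivo libraries the 32 values ran from 20 to 559 counts and totalled 4561. In vitro, 21 of the 32 values were 0, the highest was 6 and the total was 20 counts. In bulk samples, fewer cells of a type and less RNA per cell cannot be told apart.

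**Figure D1:**
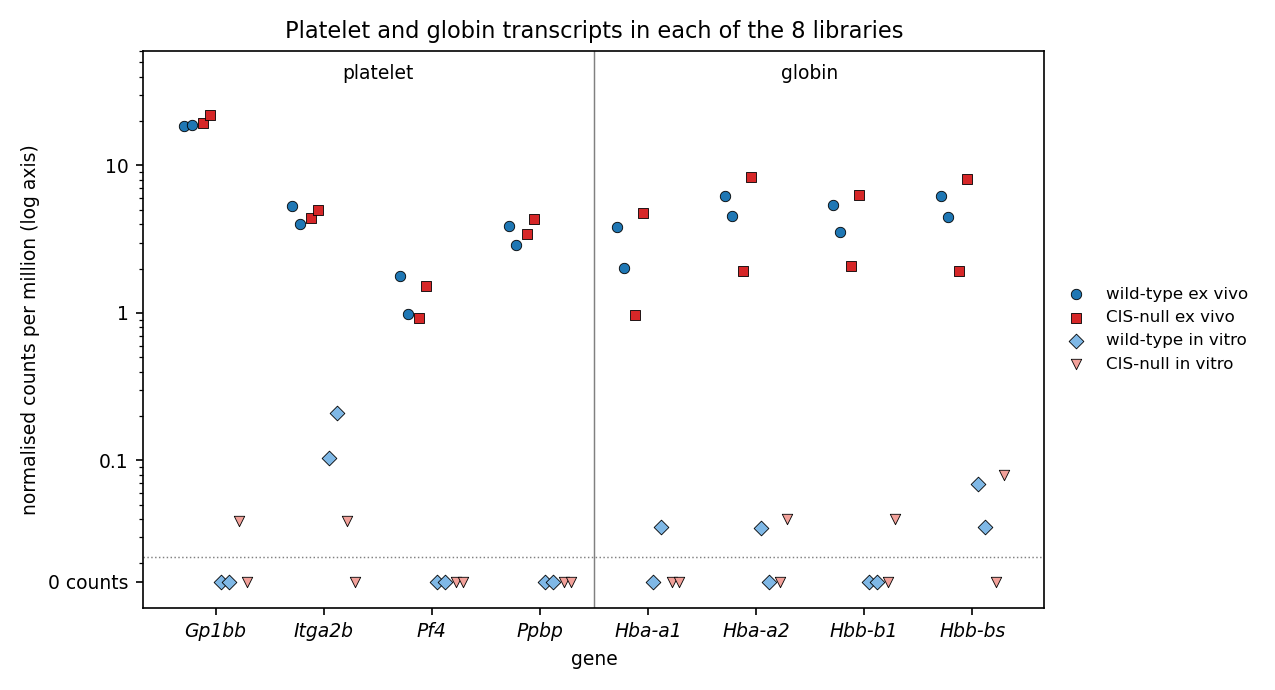
Level of each gene in each library, as CPM on a log axis, with libraries at 0 counts drawn below the dotted line. Blue circles are wild-type ex vivo, red squares CIS-null ex vivo, light diamonds wild-type in vitro and light triangles CIS-null in vitro libraries. The ex vivo points lie at 0.921 CPM or above, and the in vitro points at 0.211 CPM or below.

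Gp1bb encodes the beta chain of glycoprotein Ib, part of the platelet receptor for von Willebrand factor, and Itga2b encodes the alpha chain (CD41) of the platelet fibrinogen receptor. Gp1bb held 440 and 474 counts in wild-type cells and 424 and 559 counts in CIS-null cells ex vivo, which is 18.5, 18.7, 19.5 and 21.99 CPM. In vitro it held 0 counts in 3 libraries and 1 count in CIS-null replicate 1. Its ex vivo libraries lay close together, the highest at 1.19 times the lowest. Itga2b held 127 and 102 counts in wild-type cells and 96 and 127 counts in CIS-null cells ex vivo (5.34, 4.03, 4.42 and 4.996 CPM). In vitro it held 3 and 6 counts in wild-type cells and 1 and 0 counts in CIS-null cells. Itga2b thus accounted for 10 of the 20 counts left in vitro, and the genotypes overlapped ex vivo.

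Pf4 and Ppbp encode the chemokines CXCL4 and CXCL7 of the platelet alpha granule. They are neighbours on chromosome 5, Ppbp at 90768518 to 90770063 and Pf4 at 90772435 to 90773383 (GRCm38.p6), with 2371 bases between them. Pf4 held 42 and 25 counts in wild-type cells and 20 and 39 counts in CIS-null cells ex vivo (1.77, 0.987, 0.921 and 1.53 CPM), and 0 in all 4 in vitro libraries. Ppbp held 92 and 73 counts in wild-type cells and 74 and 110 counts in CIS-null cells ex vivo (3.87, 2.88, 3.41 and 4.33 CPM), and again 0 in all 4 in vitro libraries. For both chemokines the genotypes overlapped ex vivo, and the states were separate. These were the members with no count at all after culture.

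The alpha globins are encoded by Hba-a1 and Hba-a2, 12005 bases apart on chromosome 11 (32283672 to 32284486 and 32296492 to 32297310). Hba-a1 held 91 and 51 counts in wild-type cells and 21 and 122 counts in CIS-null cells ex vivo (3.83, 2.01, 0.967 and 4.80 CPM), against 0, 1, 0 and 0 counts in vitro. Hba-a2 held 148 and 115 counts in wild-type cells and 42 and 214 counts in CIS-null cells ex vivo (6.23, 4.54, 1.93 and 8.42 CPM), against 1, 0, 0 and 1 counts in vitro. For both, the 2 CIS-null libraries lay outside the wild-type pair, replicate 1 below it and replicate 2 above it.

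The beta globins followed the same order of libraries. Hbb-bs lies at 103826523 to 103827928 of chromosome 7. The gene reference places Hbb-b1 on an alternate sequence of chromosome 7, so no position is printed for it. Whether its counts stand for a separate gene in these mice was not tested. Hbb-b1 held 128 and 89 counts in wild-type cells and 45 and 161 counts in CIS-null cells ex vivo (5.39, 3.51, 2.07 and 6.33 CPM), against 0, 0, 0 and 1 counts in vitro. Hbb-bs held 148 and 113 counts in wild-type cells and 42 and 207 counts in CIS-null cells ex vivo (6.23, 4.46, 1.93 and 8.14 CPM), against 2, 1, 0 and 2 counts in vitro. CIS-null replicate 1 was again the lowest of the 4 ex vivo libraries and replicate 2 the highest.

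The stretches before the gene starts are shown because all 8 genes were high ex vivo and at or near 0 in vitro, and because the alpha globin genes are near copies of each other. RefSeq promoter windows (GRCm38.p6) matched 7 of the 8 genes, all but Hbb-b1, and the 250 bases before the start were read on the gene's strand, 5′ to 3′. Capitals mark GATAA (or TTATC), a form of the site for GATA factors, and CACCC (or GGGTG), the core of sites for Krüppel-like factors. They also mark GGAAG (or CTTCC), an ETS-type core. The windows lie at chr16:18622404-18622653 (minus strand) for Gp1bb, chr11:102469884-102470133 (minus strand) for Itga2b, chr5:90772185-90772434 (plus strand) for Pf4, chr11:32283422-32283671 (plus strand) for Hba-a1 and chr7:103827929-103828178 (minus strand) for Hbb-bs.
Gp1bb: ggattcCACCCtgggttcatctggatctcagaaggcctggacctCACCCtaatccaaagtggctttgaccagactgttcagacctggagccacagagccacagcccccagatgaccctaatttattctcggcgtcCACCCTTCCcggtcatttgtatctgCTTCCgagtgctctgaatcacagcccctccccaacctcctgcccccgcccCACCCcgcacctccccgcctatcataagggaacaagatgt
Itga2b: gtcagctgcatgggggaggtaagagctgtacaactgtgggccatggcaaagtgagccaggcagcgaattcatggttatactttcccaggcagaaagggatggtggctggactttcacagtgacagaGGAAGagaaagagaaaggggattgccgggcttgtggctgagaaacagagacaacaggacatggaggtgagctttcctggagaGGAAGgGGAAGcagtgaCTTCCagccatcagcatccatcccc
Pf4: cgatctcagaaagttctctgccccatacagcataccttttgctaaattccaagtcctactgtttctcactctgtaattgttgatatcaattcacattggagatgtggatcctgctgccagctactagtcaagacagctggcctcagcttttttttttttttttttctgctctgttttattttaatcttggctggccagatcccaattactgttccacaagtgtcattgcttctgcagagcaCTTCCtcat
Hba-a1: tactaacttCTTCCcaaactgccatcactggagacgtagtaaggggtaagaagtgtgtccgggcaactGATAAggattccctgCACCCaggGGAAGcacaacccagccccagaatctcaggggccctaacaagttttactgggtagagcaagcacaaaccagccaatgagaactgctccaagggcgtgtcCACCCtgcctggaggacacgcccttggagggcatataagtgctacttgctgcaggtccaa
Hbb-bs: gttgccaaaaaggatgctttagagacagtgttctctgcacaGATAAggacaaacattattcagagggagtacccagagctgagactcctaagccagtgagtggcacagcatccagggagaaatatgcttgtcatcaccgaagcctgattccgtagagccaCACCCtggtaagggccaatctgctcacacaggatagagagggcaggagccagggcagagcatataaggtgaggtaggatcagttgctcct

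A GATAA match stood once in each of the 3 globin windows, 182 bases before the start of Hba-a1, 185 before Hba-a2 and 209 before Hbb-bs, and in 0 of the 4 platelet windows. Over 32851 RefSeq windows of the same length, 22.6% held GATAA, 52.0% CACCC and 64.1% GGAAG on either strand. GGAAG stood 4 times before Itga2b, 2 times each before Gp1bb, Ppbp, Hba-a1 and Hba-a2, once before Pf4 and 0 times before Hbb-bs. CACCC stood 4 times before Gp1bb, 2 times before each alpha globin, once before Hbb-bs and 0 times before Itga2b, Pf4 and Ppbp. One CACCC match of Gp1bb overlapped a GGAAG match. These are matches of letters, other forms of GATA sites were not searched, and no binding was measured. The windows of Hba-a1 and Hba-a2 were identical over 247 of 247 aligned bases at an offset of 3 bases.

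Counts of near copies and of overlapping genes are uncertain, since how the authors' counting treated shared reads is not given in the sources used here. Of the 50-base stretches of the Hba-a2 transcript, 86.9% also occur in that of Hba-a1, and 65.8% of those of Hbb-bs occur in Hbb-bt, which is not analysed here. Ex vivo, Hba-a2 took 61.9%, 69.3%, 66.7% and 63.7% of the alpha globin counts in wild-type replicates 1 and 2 and CIS-null replicates 1 and 2, and the exact 95% intervals all overlapped. Hbb-bs took 53.6%, 55.9%, 48.3% and 56.2% of the beta counts in the same order, with intervals as wide as 37.4% to 59.2%. Alpha counts per beta count were 0.866, 0.822, 0.724 and 0.913, with overlapping intervals.

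Gp1bb lies at 18620319 to 18622403 of chromosome 16 and overlaps Sept5, a septin gene on the same strand. The RefSeq spans share 593 bases, 28.4% of Gp1bb, and the GENCODE exons of Sept5 cover 91.1% of those of Gp1bb. Sept5 held 601, 760, 617 and 1004 counts ex vivo and still 180, 186, 153 and 122 counts in vitro, where Gp1bb was at 0, 0, 1 and 0.

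Levels of different genes were set side by side per length only, as CPM per kilobase of exon (RPKM, mean ± SD over the 4 ex vivo libraries). Gp1bb was at 9.44 ± 0.767, Hba-a2 at 9.38 ± 4.86 and Hbb-bs at 8.12 ± 4.13 RPKM. Hbb-b1 followed at 6.91 ± 3.04 and Hba-a1 at 5.19 ± 3.10 RPKM. The remaining platelet genes were lowest, with Ppbp at 3.35 ± 0.574, Pf4 at 2.21 ± 0.705 and Itga2b at 1.37 ± 0.171 RPKM. The ranges of neighbours in this order overlapped, except those of Pf4 (1.57 to 3.01 RPKM) and Itga2b (1.17 to 1.55 RPKM), which lay next to each other without overlap. Ppbp lay above Pf4 in each of the 4 ex vivo libraries.

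The 4 globins spread over the ex vivo libraries more widely than the 4 platelet genes did. Summed, the platelet genes stood at 29.5 and 26.6 CPM in the wild-type libraries and at 28.28 and 32.85 CPM in the CIS-null libraries. The globins summed to 21.67 and 14.52 CPM in the wild-type libraries and to 6.908 and 27.7 CPM in the CIS-null libraries. In CIS-null cells replicate 2 held 4.01 times the globin level of replicate 1 (counting interval 3.36 to 4.81), with single genes between 3.06 (Hbb-b1) and 4.96 times (Hba-a1). The platelet sum differed by 1.16 times (1.05 to 1.29) between the same libraries, with single genes between 1.13 (Gp1bb and Itga2b) and 1.67 times (Pf4, 0.948 to 3.01). Gp1bb made up between 62.8% and 70.3% of the platelet counts of an ex vivo library, and without it the platelet ratio in CIS-null cells was 1.24 (1.03 to 1.5). In wild-type cells replicate 2 held 0.670 times the globin level of replicate 1 (0.585 to 0.768), with single genes between 0.526 (Hba-a1) and 0.729 times (Hba-a2). The platelet sum stood at 0.902 times (0.810 to 1.00), but only Gp1bb was near 1 (1.01), with Pf4 at 0.558, Ppbp at 0.744 and Itga2b at 0.753. Without Gp1bb the wild-type platelet ratio was 0.719 (0.595 to 0.867), an interval that overlaps that of the globins. Globin counts per platelet count were thus 0.735 and 0.546 in wild-type cells and 0.244 and 0.843 in CIS-null cells, the third value with a counting interval of 0.203 to 0.293. The library with the fewest globin counts was the one with the highest B cell and basophil sums, and its neutrophil and granulocyte precursor sum was 2.16 CPM against 4.56 to 9.51 CPM. The part of these cells in the globin spread was not tested.

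**Figure D2:**
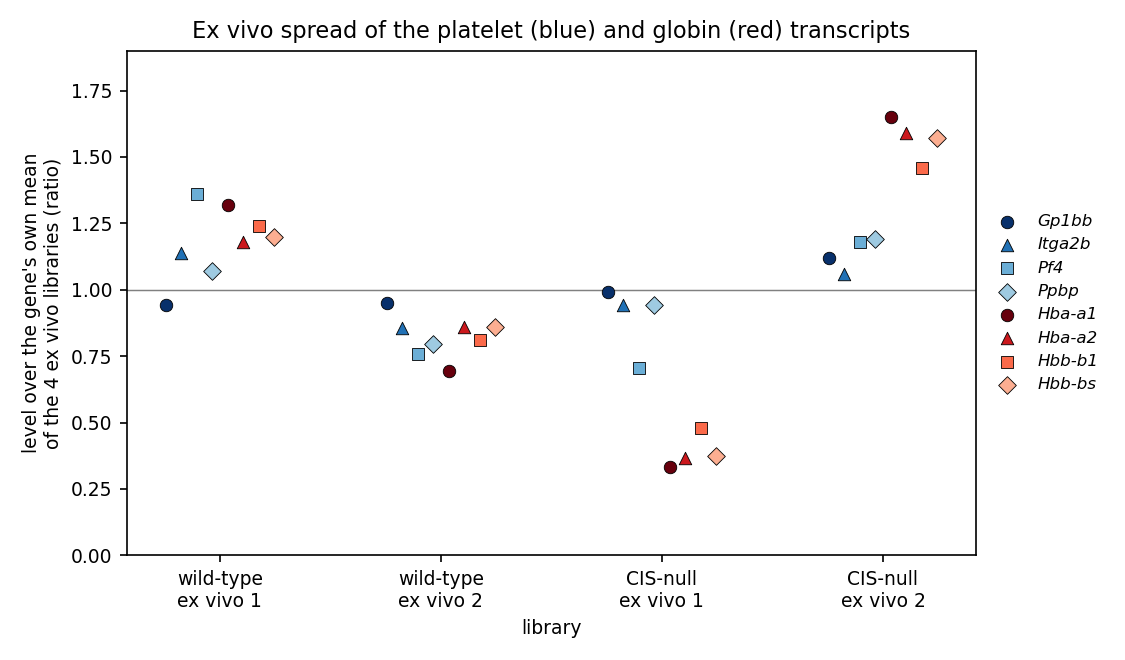
Each point is the level of 1 gene in 1 ex vivo library, divided by that gene's mean over the 4 ex vivo libraries (ratio, linear axis). Blue points are platelet genes and red points globins. In CIS-null replicate 1 the globins lie between 0.333 and 0.479 of their mean and the platelet genes between 0.707 and 0.992. In CIS-null replicate 2 all 8 genes lie above 1.

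Whether platelet and red cell messages differed between genotypes was asked first ex vivo. None of the 8 genes passed (0 of 8, edgeR adjusted p between 0.813 and 1.0), and 0 had an unadjusted p under 0.05. Over all 13184 genes tested, 0.0607% passed in this comparison, so few genes of any kind did. DESeq2 and limma-voom also called 0 of the 8. The median log2 difference (CIS-null minus wild-type) was 0.08 over the platelet genes and -0.06 over the globins, beside 0.02 over all genes tested.

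The width of the intervals differed more than the estimates. Gp1bb had a log2 difference of 0.16 (95% interval -0.21 to 0.53, SE 0.159), the narrowest of the 8. For Itga2b the difference was 0.01 (-0.65 to 0.67), for Ppbp 0.20 (-0.52 to 0.92) and for Pf4 -0.15 (-1.27 to 0.97). Among the globins Hba-a1 had the widest interval, -1.59 to 1.59. Those of Hba-a2 (-1.33 to 1.24), Hbb-b1 (-1.26 to 1.11) and Hbb-bs (-1.35 to 1.21) were nearly as wide, so a log2 difference of 1 in either direction lay within each of them. Without CIS-null replicate 1 the globin differences became positive, at 0.72, 0.65, 0.51 and 0.61 for Hba-a1, Hba-a2, Hbb-b1 and Hbb-bs (edgeR adjusted p between 0.932 and 0.986). Without wild-type replicate 1 they were also positive, at 0.53, 0.20, 0.27 and 0.19, and that of Pf4 was 0.32. Without CIS-null replicate 2 they moved the other way, to -1.59, -1.47, -1.10 and -1.46, with edgeR adjusted p between 0.191 and 0.279. Without wild-type replicate 2 they stayed negative, between -0.40 and -0.26.

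**Figure D3:**
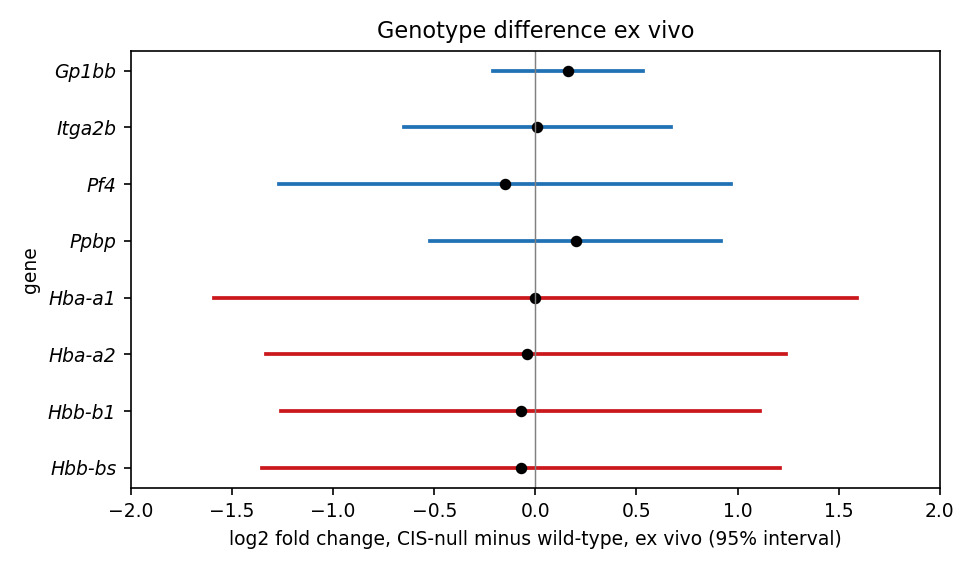
Log2 fold change between CIS-null and wild-type ex vivo libraries for each gene (points) with its 95% interval from the edgeR fit (lines), blue for platelet genes and red for globins. All 8 intervals cross 0, and those of the globins reach beyond 1 in both directions.

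In vitro only Itga2b had more than 3 counts in either genotype, so no difference was detectable at this depth for the other 7. Its 9 wild-type and 1 CIS-null counts give a ratio of 8.01 with a counting interval of 1.11 to 351. The log2 difference was -2.73 (SE 0.940), and it did not pass (edgeR adjusted p = 0.0637, unadjusted p = 0.0188), so 0 of 8 were called beside 25.6% of all genes. It passed without CIS-null in vitro replicate 1 (-5.05, edgeR adjusted p = 0.0471) and by limma on log2 RPKM (-1.99, adjusted p = 0.0386), and not by DESeq2 (-2.97, adjusted p = 0.135). For the difference between the 2 genotype contrasts, 0 of 8 passed beside 0.137% of all genes. Itga2b had a value of -2.73 there (SE 0.988, edgeR adjusted p = 0.196, unadjusted p = 0.0232).

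All 8 genes were lower in vitro than ex vivo in both genotypes. In each genotype 8 of 8 passed as lower, where 31.6% of all genes did so for wild-type and 37.5% for CIS-null cells. All 8 had entered the test through their ex vivo libraries alone, which lay above the entry level of 0.384 CPM while every in vitro library lay below it. Entry by that route favours genes that are lower in vitro, so the count of calls supports nothing by itself. The values are what describe the change.

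In wild-type cells Gp1bb was at least 355-fold lower after culture, Ppbp at least 64.1-fold, Pf4 at least 26.0-fold and Hbb-b1 at least 84.3-fold, with 3 counts over the 2 in vitro libraries as the limit. Hba-a2 was 307-fold lower (counting interval 54.5 to 12200), Hba-a1 166-fold (29.2 to 6580) and Hbb-bs 101-fold (34.3 to 495). Itga2b was 29.7-fold lower (log2 -4.85, SE 0.414, edgeR adjusted p = 2.32e-05), the smallest ratio among the genes that kept any counts. The edgeR adjusted p-values of the 8 ran from 8.68e-07 (Gp1bb) to 0.00201 (Hba-a1). Folds with so few counts move with each library: they ran from at least 12.9-fold (Pf4) to at least 177-fold (Gp1bb) without wild-type in vitro replicate 1, and from at least 13.1-fold to at least 179-fold without replicate 2. Leaving out an ex vivo library gave at least 18.8-fold to at least 357-fold without replicate 1 and at least 33.7-fold (Pf4) to 356-fold (Hba-a2) without replicate 2. Without wild-type in vitro replicate 2 Itga2b was 44.7-fold lower.

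In CIS-null cells Gp1bb was 1060-fold lower after culture (counting interval 190 to 42000) and Itga2b 241-fold (42.8 to 9560). Ppbp was at least 66.3-fold lower and Pf4 at least 21.2-fold. Hba-a1 was at least 51.5-fold lower, Hba-a2 277-fold (49.2 to 11000), Hbb-b1 223-fold (39.5 to 8830) and Hbb-bs 134-fold (36.8 to 1120). The edgeR adjusted p-values ran from 6.77e-07 (Gp1bb) to 0.00139 (Hba-a1). The globin folds depended on the ex vivo library used. Without CIS-null ex vivo replicate 1 they were at least 81.5-fold for Hba-a1, 429-fold for Hba-a2, 322-fold for Hbb-b1 and 207-fold for Hbb-bs. Without replicate 2 they were at least 16.4-fold, 98.5-fold, 106-fold and 49.2-fold in the same order. Without CIS-null in vitro replicate 1 the 8 folds ran from at least 10.4-fold (Pf4) to at least 174-fold (Gp1bb), and without replicate 2 from at least 10.8-fold to 541-fold.

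Other platelet and megakaryocyte genes were read from a list of 30, all in the table. Each had counts in every ex vivo library, and 10 or 11 of the 30 were at 0 in each in vitro library. Of 26 tested, 0 passed between genotypes ex vivo. Of these, 12 entered the test through their ex vivo libraries alone, which favours a fall on culture, and 1 through its in vitro libraries alone. On culture 17 fell, 5 rose and 4 did not pass in wild-type cells, and 17 fell, 6 rose and 3 did not pass in CIS-null cells, beside 31.6% and 37.5% of all genes that fell and 32.1% and 34.8% that rose. The median log2 change was -2.27 in wild-type cells and -2.42 in CIS-null cells, against -0.05 or nearer to 0 over all genes. Members passed in both directions. The 12 genes that entered through ex vivo libraries alone weigh on the number that fell, the share that rose and the median. None of these is therefore read as a difference from all genes.

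The partners of Gp1bb in its receptor, named for that role and not by the rule for named genes, were also low after culture. Gp1ba, the chain that binds von Willebrand factor, held 38, 38, 14 and 33 counts ex vivo and 16, 13, 6 and 3 counts in vitro, and fell in both genotypes (log2 -1.60 and -2.44, edgeR adjusted p = 0.0105 and 0.00283). Gp9 held 22, 9, 9 and 12 counts ex vivo and 0, 0, 1 and 1 in vitro, and Gp5 21, 11, 13 and 27 counts against 3, 1, 0 and 0. Per length Gp1ba stood at 0.461 RPKM ex vivo and 0.125 RPKM in vitro, while Gp1bb stood at 9.44 and 0.00462 RPKM.

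Itgb3, the beta chain (CD61) that pairs with the product of Itga2b on platelets and with the alpha V chain on many cells, went the other way. It held 602, 730, 534 and 710 counts ex vivo and 12540, 15168, 11153 and 9449 counts in vitro. It was 17.8-fold higher after culture in wild-type (log2 4.16, SE 0.149, edgeR adjusted p = 3.41e-07) and 15.3-fold in CIS-null cells. Pdgfa, a growth factor stored in platelet granules, rose from 4, 1, 6 and 7 counts to between 1417 and 1931 counts. Nrgn, which encodes the calmodulin-binding protein neurogranin, rose by a log2 change of 2.52 in wild-type cells and 2.17 in CIS-null cells. F2rl2, which encodes the thrombin receptor PAR3, rose by 1.68 and 2.05. Plek and Cd9, found in platelets and many leukocytes, had the highest levels per length of the list ex vivo, at 416 and 324 RPKM, and fell by a log2 change of 1.69 and 1.06 in wild-type cells.

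Itga2 encodes CD49b itself, the antigen of the beads, and belongs to platelets and NK cells alike. It held 6519, 7010, 5112 and 6212 counts ex vivo and 611, 518, 260 and 178 counts in vitro. The fall was 14.0-fold in wild-type (log2 -3.80, SE 0.154, edgeR adjusted p = 5.38e-07) and 27.9-fold in CIS-null cells (log2 -4.80, SE 0.165, edgeR adjusted p = 2.32e-07). In vitro it was lower in CIS-null than in wild-type cells by a log2 difference of -1.20 (edgeR adjusted p = 0.00409). Per length Itga2 stood at 61.1 RPKM ex vivo, against 1.37 RPKM for Itga2b.

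**Figure D4:**
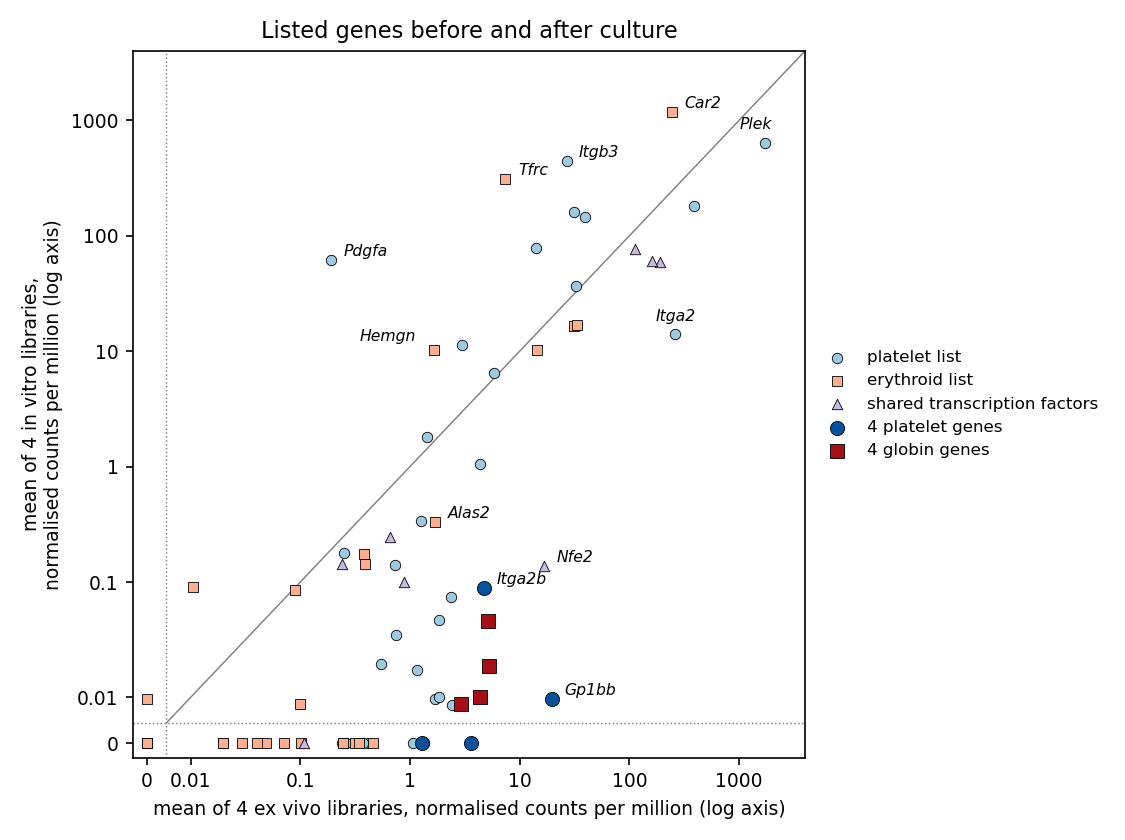
Mean level over the 4 ex vivo libraries (horizontal) and the 4 in vitro libraries (vertical), in CPM on log axes, for the 4 platelet genes, the 4 globins and the listed platelet, erythroid and transcription factor genes. Means of 0 are drawn beyond the dotted lines, and the diagonal marks equal levels. Gp1bb, the other 3 platelet genes and the globins lie far below the diagonal, while Itgb3, Pdgfa, Tfrc, Car2 and Hemgn lie above it.

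Of 32 listed erythroid genes, 29 were in the table and 11 were tested, most of the others having too few counts in any group. The embryonic globins Hbb-bh1, Hbb-y and Hba-x, named for their family, were at 0 in all 8 libraries. Between genotypes ex vivo 0 of 11 passed. On culture 5 fell and 3 rose in each genotype (5 of the 11 had entered the test through ex vivo libraries alone), beside 31.6% and 37.5% of all genes that fell and 32.1% and 34.8% that rose, so the counts lay near those of all genes. The 11 had a median log2 change of -0.85 in wild-type cells and -1.20 in CIS-null cells. Leaving out 1 library changed the number tested, and in each genotype the number that fell moved with the library left out.

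Alas2, the erythroid enzyme that starts haem synthesis, is named for its role. It held 38, 42, 19 and 68 counts ex vivo, lowest in CIS-null replicate 1 and highest in CIS-null replicate 2. The globins had the same lowest and highest ex vivo libraries, but no other tested gene of the erythroid list did. In vitro Alas2 held 8, 9, 15 and 4 counts, and it fell in both genotypes (log2 -2.44 and -2.26, edgeR adjusted p = 0.0110 and 0.0120). Fech, the last enzyme of haem synthesis, was at 33.1 CPM ex vivo and fell by a log2 change of 0.76 and 1.20. Bpgm, a red cell glycolytic enzyme, fell by 0.85 and 0.96, and Slc25a37, which carries iron into mitochondria, by 0.52 and 0.49. Among the ex vivo libraries, Fech and Bpgm were highest in CIS-null replicate 1, at 38.1 and 33.3 CPM. The 3 that rose were Tfrc, the transferrin receptor that dividing cells carry, Car2, a carbonic anhydrase, and Hemgn, a nuclear protein of blood precursors. Their log2 changes were 4.82, 2.34 and 2.63 in wild-type cells and 5.90, 2.22 and 2.64 in CIS-null cells.

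Of the 8 listed transcription factors that megakaryocytes and red cell precursors share, 6 were tested, and all 6 fell in each genotype, beside 31.6% of all genes for wild-type and 37.5% for CIS-null cells. Of the 6, Tal1, Nfe2 and Lmo2 entered the test through their ex vivo libraries alone, which favours a fall. Zfpm1, Runx1 and Fli1 lay above the entry level in all 8 libraries. Gata1 held between 2 and 10 counts ex vivo and between 1 and 8 in vitro, and it was not tested. Nfe2, needed for platelet formation, held 340, 413, 396 and 457 counts ex vivo and 5, 4, 2 and 4 in vitro, a fall of 97.5-fold in wild-type cells and 154-fold in CIS-null cells (edgeR adjusted p = 3.78e-07 and 2.85e-07). Zfpm1, Runx1 and Fli1, which lymphocytes use too, were at 189, 161 and 112 CPM ex vivo and fell by a log2 change of 1.56, 1.35 and 0.35 in wild-type cells. In wild-type cells fewer fell when any 1 library was left out, and most of these fits also tested a different number of factors.

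Markers of other cells are given for the same libraries. The 8 B cell markers summed to between 15.4 and 81.6 CPM ex vivo and at most 0.732 CPM in vitro, and 5 or 6 of the 8 were at 0 in each in vitro library. The 10 neutrophil and granulocyte precursor markers summed to between 2.16 and 9.51 CPM ex vivo and between 0.141 and 2.52 CPM in vitro, with 8 or 9 at 0 in vitro. The 8 T cell markers summed to between 23.0 and 48.0 CPM ex vivo, and in vitro to 171 and 162 CPM (wild-type) or 835 and 799 CPM (CIS-null). Not all 8 followed the sum: mean levels of Cd3d, Cd3e, Cd3g and Cd8a rose, while those of Cd4, Cd8b1, Cd5 and Trat1 fell. For wild-type, 2 of the 8 passed as higher after culture and 3 as lower (median log2 change -0.28). For CIS-null, 4 passed as higher and 1 as lower (median 0.86). The 10 basophil and mast cell markers summed to between 9.35 and 43.4 CPM ex vivo and between 27.6 and 72.5 CPM in vitro. Of the 10, 5 or 6 were at 0 in each in vitro library. Mean levels of Mcpt8 and Cpa3 rose from 1.68 and 4.13 CPM to 26.8 and 18.8 CPM, while those of the others fell. The 8 monocyte and macrophage markers summed to between 1570 and 2010 CPM ex vivo and between 1240 and 1780 CPM in vitro. Of the 8, 3 or 4 were at 0 in each in vitro library. Mean levels of Cd68 and Ccr2 rose, while those of the others fell, Csf1r from 48.8 to 0.0183 CPM. The B cell sums were thus also lower after culture in both genotypes, and the granulocyte sums were lower in wild-type cells. In CIS-null cells the granulocyte sums overlapped between states, at 2.16 and 4.56 CPM ex vivo against 0.964 and 2.52 CPM in vitro. Ctsg among them held 0 counts in both CIS-null ex vivo libraries and 24 and 62 counts in vitro. The part of these other cells in the values of the platelet and globin genes was not tested.

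The tested genes closest to each of the 8 were found by the root mean square distance between log2 levels over the 8 libraries, each gene centred on its own mean. For Pf4 they were F5 (coagulation factor V, distance 0.135), Otop3 (0.209) and Vwf (0.209), the first and last being listed platelet genes. For Ppbp they were Spic (0.161), Ms4a15 (0.193) and Spi1 (0.199), of which Spic and Spi1 encode factors of macrophages and other blood cells. Gp1bb lay closest to Tmem151a (0.282), Mrc1 (0.290) and Dtx1 (0.323), and Itga2b to Arl4d (0.254), Col8a2 (0.278) and Sbk1 (0.302). Hba-a2 lay closest to Hbb-b1 (0.218) and Hbb-bs (0.227), and Hbb-b1 and Hbb-bs each to Hba-a2. Hba-a1 lay closest to S100a9, a granulocyte gene (0.411), then Hbb-bs (0.413) and Hbb-b1 (0.470). The difference between the states enters every such distance, and 4166 tested genes were called lower after culture in wild-type cells.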

How the data were processed

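The authors deposited raw read counts for 27179 genes in 8 libraries and log2 RPKM values per library. Per the submitters' processing notes, Subread, featureCounts, limma and GRCm38/mm10 were used, and versions, strand and the treatment of shared reads are not given in the sources used here. Counts were tested in R 4.3.3 with edgeR 4.0.16 (quasi-likelihood F test, filterByExpr with a minimum count of 10, 13184 genes, trimmed mean of M values scaling, all 8 libraries, 4 group means), with Benjamini-Hochberg adjustment across the genes tested and a threshold of 0.05, with limma 3.58.1 and DESeq2 1.42.0 as alternatives. Standard errors are the log2 change over the square root of F. Fits were tested on simulated data. Within each group the 2 libraries differed beyond counting noise (chi-square over degrees of freedom from 6.03 to 34.2). The 8 genes and the gene lists were chosen with earlier results of these data known. All 8 genes are named; of each list the rule names the 4 most abundant ex vivo and up to 4 passing with the lowest p. List symbols were matched by symbol or Entrez identifier, and Ahsp, Hbb-bt and Hbb-b2 are not analysed here.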

Additional observations from a re-analysis of the deposited data

How the results depend on the processing

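The choice of scaling, filter, tool or library changed no call of the 8 genes ex vivo (0 of 8 in every fit) or of their fall on culture, with these exceptions. With a filter of at least 5 CPM in 2 libraries 5 of 8 were called lower in each genotype, since Pf4, Ppbp and Hba-a1 then left the test. In vitro 1 of 8 (Itga2b) passed between genotypes by limma on log2 RPKM, and 0 to 1 when 1 library was left out. Uncalled genotype differences ex vivo changed sign in places: Itga2b was at -0.01 with library totals, -0.007 without a filter, -0.003 with the stricter filter and -0.005 with the compared samples alone. With 1 library left out Itga2b ran from -0.18 to 0.23, Pf4 from -0.57 to 0.32, Hba-a1 from -1.59 to 0.72, Hba-a2 from -1.47 to 0.65, Hbb-b1 from -1.10 to 0.51 and Hbb-bs from -1.46 to 0.61. The cause was not tested. Over all genes the calls ran from 3 to 41 ex vivo (8 as reported), from 500 to 4296 in vitro (3374) and from 1 to 580 for the interaction (18). Replicates share only a number (correlations of deviations between groups -0.23 to 0.15). With a replicate block 8 of 8 genes were again lower on culture in each genotype and 0 of 8 differed between genotypes, and the interaction had 6 calls over all genes. Depth limits the in vitro values to differences above 3 counts.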

Other observations

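The deposited log2 RPKM files list a gene at 0 counts at a value that depends on its length: all 4 in vitro libraries stand at -4.07 for Pf4 and at -4.95 for Ppbp, while the in vitro values of Gp1bb run from -5.90 to -4.36. In vitro, the lowest listed value of each of the 8 genes stands for 0 counts. Once gene length was undone, the sorted values of any 2 libraries were almost the same (median gap between 0.000502 and 0.000713 on the log2 scale over 28 pairs), with a largest gap at any rank between 0.792 and 1.71, although the count totals of the libraries differed.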
